A study of Mus musculus with 8 samples.

Results

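Forkhead transcription factors were followed in mouse embryos that lack Foxa2, itself a forkhead gene, to ask which other members of the family went down with it and which did not. The 9 genes described are Foxa1, Foxa2, Foxa3, Foxb1, Foxc1, Foxd3, Foxd4, Foxh1 and Foxj1, taken as every probe set that the array annotations assign to 1 of these genes alone. A probe set is the group of short probes that measures a transcript on an Affymetrix array. The genes had 9 probe sets among the 12488 of the U74Av2 array and 12 among the 45101 of the MOE430v2 array, 21 in all. The annotations name 18336 genes on either array. Another 35 forkhead genes are in the reference annotation, and 28 of them had probe sets on MOE430v2.

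RNA came from the epiblast region at embryonic day 7.5, mid-streak to head-fold stages, without the extra-embryonic region. Embryos were pooled without separation by sex. There were 2 pools of Foxa2 null embryos (53 and 48 embryos) and 2 pools of wild-type ICR embryos (53 and 50 embryos), and each of the 4 extracts was hybridized to 1 array of either type, which gives 8 arrays. The platforms are repeat measurements of the same extracts, so n was 2 pools per genotype throughout. The Foxa2 null embryos were grown from mutant embryonic stem cells by tetraploid complementation, in which wild-type tetraploid host cells form the visceral endoderm, the extra-embryonic epithelium around the epiblast. This wild-type visceral endoderm stayed on the mutant embryos. Genotype and embryo origin cannot be told apart in this design, and the labels of the mutant MOE430v2 arrays also name ICR. The sex of the mutant stem cells is not given in the sources used here, so a sex difference cannot be told apart from genotype either. By the study's staging, wild-type pool 2 was the younger of the wild-type pools, with fewer head-fold and more mid-streak embryos.

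Forkhead proteins bind DNA through a winged-helix domain that was first described in the Drosophila gene fork head. Foxa1, Foxa2 and Foxa3 are the closest relatives of that gene in the mouse and open chromatin in endoderm-derived tissues. Foxa2 is needed for the node, the notochord and the definitive endoderm, the tissues that form at the anterior end of the primitive streak during gastrulation. Other members have separate tasks at this stage. Foxh1 joins Smad proteins on the targets of Nodal, Foxd3 keeps epiblast cells undifferentiated, and Foxj1 switches on the genes of motile cilia, which the node carries.

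The members that fell on the average of both platforms were Foxa1, Foxa2 and Foxd4, and the windows around their start sites are shown because each of these genes was called lower. RefSeq windows (GRCm38.p6, from 250 bases before to 50 bases after the start) were at hand for 6 of the 9 members, 8 windows in all, of which Foxa2 has 3. The forkhead core was searched for on both strands as 4 words. They are TGTTTAC and TGTTTAT, together with the forms spelled TATTTAC and also TATTTAT, and a match is in capitals. The windows lie on the minus strand at chr12:57546062-57546361 for Foxa1, at chr19:24900967-24901266 for Foxd4 and at chr2:148046920-148047219 for the most upstream of the Foxa2 starts, and each is written 5′ to 3′ along its gene.
Foxa1: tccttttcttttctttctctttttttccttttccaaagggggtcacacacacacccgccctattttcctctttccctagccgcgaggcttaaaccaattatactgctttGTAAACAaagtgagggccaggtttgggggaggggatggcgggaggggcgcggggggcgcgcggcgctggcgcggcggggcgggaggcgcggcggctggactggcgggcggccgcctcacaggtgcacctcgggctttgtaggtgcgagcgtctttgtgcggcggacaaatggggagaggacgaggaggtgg
Foxd4: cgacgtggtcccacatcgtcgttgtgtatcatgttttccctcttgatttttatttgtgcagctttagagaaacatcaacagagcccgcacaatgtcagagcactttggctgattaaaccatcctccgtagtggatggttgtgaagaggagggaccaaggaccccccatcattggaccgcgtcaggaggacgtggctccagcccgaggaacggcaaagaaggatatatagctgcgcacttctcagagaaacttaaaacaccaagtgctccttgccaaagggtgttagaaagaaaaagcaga
Foxa2: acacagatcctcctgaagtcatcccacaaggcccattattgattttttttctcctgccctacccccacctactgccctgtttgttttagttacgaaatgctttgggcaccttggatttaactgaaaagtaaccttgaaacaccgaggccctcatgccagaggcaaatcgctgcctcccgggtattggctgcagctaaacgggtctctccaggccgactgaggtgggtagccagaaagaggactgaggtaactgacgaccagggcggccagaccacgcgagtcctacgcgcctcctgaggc
The Foxa1 window held 1 match, GTAAACA, the reverse complement of TGTTTAC, which began 141 bases before the start. The other 7 windows of member genes held none of the 4 words. Related words were not searched for, such as tgtttgt in the Foxa2 window and tatttgt in the Foxd4 window. The study's own search of wider conserved regions found a Foxa2 motif at Foxa2 itself. Of all 32851 promoter windows of this length, 15% held at least 1 of the 4 words and 3.65% held TGTTTAC, so the match describes the sequence and is not a measured binding site.

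The values are MAS5 signals, the summary intensity that Affymetrix software gives each probe set, and they are compared as log2 ratios (null over wild-type) by limma, a linear model that shares the estimate of the spread between probe sets. Calls are at an adjusted p under 0.05, by Benjamini-Hochberg over all probe sets tested. Each ratio has its standard error (SE) and, where it misses the threshold, often its 95% interval. P-values measure the spread between pools of embryos. Limma without its trend of the spread with the signal called 0 of the forkhead genes named here in any comparison, so each forkhead call below rests on that trend, and with no signal filter the averaged calls of Foxa1 and Foxd4 were kept and those of the other forkhead genes were lost. With 2 pools against 2, an exact permutation test cannot go below 0.333. In pooled tissue, fewer cells that express a gene and less RNA per cell cannot be told apart. The arrays had median signals of 48 to 52.8 (U74Av2) and 155 to 165 (MOE430v2), and probe sets with a mean signal in the lowest 30%, below 15.4 and 54.4, were not tested. Of the members, 7 of the 9 U74Av2 probe sets and all 12 MOE430v2 probe sets were tested.

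Foxa2 itself was measured at 84 and 93.8 in the Foxa2 null pools and at 165.3 and 270.7 in the wild-type pools on U74Av2. On MOE430v2 its signals were 510 and 538.8 in the null pools and 802.7 and 1139 in the wild-type pools. Every null pool lay below every wild-type pool on either array, and within the wild-type, pool 2 was higher than pool 1 on both. The log2 ratios were -1.25 on U74Av2 (SE 0.26, adjusted p = 0.13) and -0.88 on MOE430v2 (SE 0.21, adjusted p = 0.142) by limma, neither past the threshold. Averaged over both platforms, Foxa2 fell by 1.07 (SE 0.20, 95% interval -1.52 to -0.61, adjusted p = 0.0309 by limma). The averaged call was lost when wild-type pool 2 was left out, with a ratio of -0.75 and an adjusted p of 0.101, where the alternatives ranged over 9.99e-05 to 0.195. Whether the probe sets lie in the deleted part of the gene is not given in the sources used here, so the ratio does not test the genotype. Of the 12 visceral endoderm markers listed, 8 of the 11 measured on U74Av2 and 11 of the 12 on MOE430v2 were higher on average in the null pools. Both null pools were above both wild-type pools for 5 and 6 of them, where 18.6% and 21.5% of all tested probe sets were. Both were below for 1 on U74Av2 and 0 on MOE430v2, where 21.4% and 21.8% were. Their summed signals on MOE430v2 were 84800 and 68600 in the null pools and 60500 and 68000 in the wild-type pools, so null pool 1 stood highest. On U74Av2 the sums were 9350 and 6200 in the null pools and 6280 and 6300 in the wild-type pools. Null pool 1 was again the highest, but null pool 2 was the lowest. Apob, a lipoprotein component, had a log2 ratio of 0.71 (adjusted p = 0.154 by limma) on MOE430v2. Apoa4 was at 0.56 there (adjusted p = 0.318) and 0.72 on U74Av2 (0.215). Cubn was at 0.52 on MOE430v2 (0.193) and 0.48 on U74Av2 (0.528). For Apoa4 and Cubn both null pools were above both wild-type pools on either array. Afp, a serum protein of the yolk sac, was at 0.43 on MOE430v2 (adjusted p = 0.0951) and at -0.48 on U74Av2 (adjusted p = 0.475). On U74Av2 it had 154.1 and 115.6 in the null pools and 185.1 and 187.9 in the wild-type pools, so its direction differed between the platforms. Lrp2, an endocytic receptor, was below 0 on both, at -0.32 on MOE430v2 (adjusted p = 0.661) and -0.10 on U74Av2 (0.954). Of the trophoblast markers, Elf5 and Tpbpa were below the filter on both arrays, and the summed U74Av2 signal of the 5 markers measured was 366 and 272 in the null pools and 255 and 201 in the wild-type pools. On MOE430v2 the sum over 5 markers was 2280 and 1570 in the null pools and 2360 and 1850 in the wild-type pools, so there the groups overlapped. Most of that sum was Cdx2, at 1611 and 872.9 in the null pools and 1824 and 1438 in the wild-type pools. Tfap2c had 528 and 499.9 in the null pools and 397.5 and 276.1 in the wild-type pools, without overlap. The genes tested on both arrays kept their direction. Tfap2c was at 0.77 on U74Av2 and 0.62 on MOE430v2, and Cdx2 was at -0.13 and -0.46, with 0 called. What the host tissue adds to the Foxa2 signal was not tested.

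Foxa1, the paralogue that appears after Foxa2 in axial mesendoderm and endoderm, gave signals on U74Av2 of 32.6 and 29.9 in the Foxa2 null pools and 84.6 and 87.7 in the wild-type pools. On MOE430v2 the signals were 206.9 and 182.5 in the null pools and 577.6 and 548.8 in the wild-type pools. The pools of a genotype were close to each other and the genotypes were far apart on both arrays. Foxa1 fell by 1.54 on MOE430v2 (SE 0.24, adjusted p = 0.0336 by limma), where the wild-type signal was 2.91 times that of the null. It was the only member gene called lower on that platform, where 0.244% of the 31526 probe sets were called lower and 0.19% higher. On U74Av2 the ratio was -1.46 (SE 0.26, adjusted p = 0.0994 by limma), and on the average of both platforms Foxa1 fell by 1.50 (SE 0.21, adjusted p = 0.0113). The MOE430v2 call was lost without Foxa2 null pool 2 (adjusted p = 0.0533), wild-type pool 1 (0.138) or wild-type pool 2 (0.16), in a range of 7.7e-05 to 0.448 over the alternatives, while the averaged call was kept without any 1 pool (0.000156 to 0.0383).

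Foxa3, the third paralogue, known from endoderm of later stages, did not pass the test on either array. Its U74Av2 signals were 45.8 and 43 in the Foxa2 null pools and 43.4 and 42.6 in the wild-type pools, a log2 ratio of 0.05 (95% interval -0.61 to 0.70, adjusted p = 0.98 by limma). On MOE430v2 they were 319.7 and 334.5 in the null pools and 374.2 and 386.5 in the wild-type pools. There the groups did not overlap, at a ratio of -0.23 (95% interval -0.74 to 0.29, adjusted p = 0.736). The averaged ratio was -0.09, with a 95% interval from -0.56 to 0.38, which lies wholly above the interval of Foxa1, -1.97 to -1.03, and just above that of Foxa2. The difference between the paralogues was not itself tested.

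**Figure D1:**
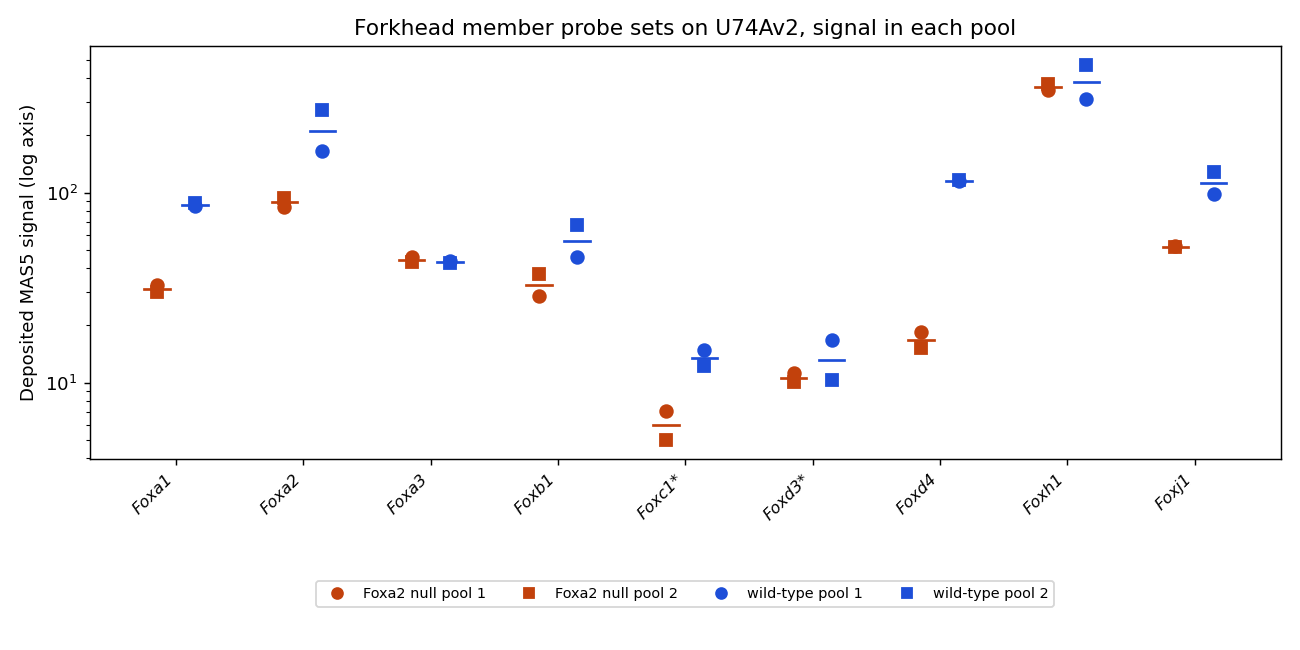
Deposited MAS5 signal (vertical axis, log scale) of the 9 member probe sets on U74Av2 (horizontal axis) in each pool, with Foxa2 null pools left of wild-type pools and bars at the geometric mean of the 2 pools. Foxd4 stands at 18.4 and 15.3 in null pools and 114.7 and 116.6 in wild-type pools, and Foxa3 at 45.8 and 43 against 43.4 and 42.6. Genes with an asterisk were below the signal filter.

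Foxd4, a forkhead factor of the anterior neuroectoderm and axial midline, showed the largest ratio of the members. On U74Av2 its signals were 18.4 and 15.3 in the Foxa2 null pools and 114.7 and 116.6 in the wild-type pools. On MOE430v2 they were 155.9 and 23.1 in the null pools and 903.9 and 674.5 in the wild-type pools. The wild-type pools were high and alike on both arrays, and null pool 2 was far below null pool 1 on MOE430v2. On U74Av2 Foxd4 fell by 2.79 (SE 0.29, 95% interval -3.45 to -2.12, adjusted p = 0.0164 by limma), with the wild-type at 6.89 times the null. It was the only member called lower on that platform, where 0.173% of the 8695 probe sets were called lower and 0.104% higher. On MOE430v2 the ratio was -3.70 with a SE of 0.73 (adjusted p = 0.077 by limma), which did not pass. Null pool 2 was below the filter signal of 54.4 on this array, so the size of the ratio is uncertain, and with an offset of 32 before log2 it was -3.00 (adjusted p = 0.0348). The ratio also passed without null pool 1, when it rests on that low signal (ratio -5.10, adjusted p = 0.000162) and without null pool 2 (-2.29, 0.00518), where a lone null pool is assumed to vary like the wild-type, in a range of 8.32e-09 to 0.479. Averaged over both platforms, Foxd4 fell by 3.24 (SE 0.42, adjusted p = 0.0113 by limma). The U74Av2 call was lost with no signal filter (adjusted p = 0.0785, in a range of 3.17e-05 to 0.12), and the null signals lay close to the filter at 15.4. With an offset of 32 the U74Av2 ratio was -1.60 (adjusted p = 0.00893).

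The anterior neuroectoderm, where Foxd4 is also expressed, was followed by a list of 6 markers. On MOE430v2 4 of them were tested and all were below 0, with a median of -1.19, against 0.00 for all probe sets. Fezf1 and Rax, which lay below the filter, were above 0, and the median over all 6 was -0.53. Hesx1, a homeobox gene of the anterior neural plate, fell by 1.66 (SE 0.27, adjusted p = 0.046 by limma), with signals of 338.8 and 195.9 in the null pools and 843.1 and 773.5 in the wild-type pools. Sox1, an early neural factor, was at -2.20 (adjusted p = 0.43), with signals of 112.9 and 11.6 in the null pools and 189.9 and 150.4 in the wild-type pools, so that null pool 2 was the low one and lay below the filter signal of 54.4. On U74Av2 Sox1 was at 0.23 (adjusted p = 0.865), with 43.5 and 62.9 in the null pools and 46.3 and 43 in the wild-type pools, and there null pool 2 was the highest. Six3, a homeobox factor of the forebrain, was at -0.71 on MOE430v2 (adjusted p = 0.353) and -1.17 on U74Av2 (0.221). Otx2, a head organizer and forebrain factor, was at -0.35 (adjusted p = 0.563). On U74Av2 the median over the 4 tested was -0.64, 3 were below 0 and 0 were called. On the average of both platforms 1 of 3 was called lower, where 1.06% of all genes were.

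Foxd3, the relative of Foxd4 that acts in epiblast and later in neural crest, went the other way on MOE430v2. Its signals there were 205.1 and 271 in the Foxa2 null pools and 34.3 and 58.3 in the wild-type pools. Both null pools were above both wild-type pools, at a log2 ratio of 2.42 (SE 0.53, 95% interval 1.23 to 3.62), short of the threshold (adjusted p = 0.0991 by limma). A wild-type pool was below the filter signal of 54.4, so the probe set was tested because of its null values. On U74Av2 the signals were 11.2 and 10.1 in the null pools and 16.7 and 10.3 in the wild-type pools, in a probe set of relaxed probe choice that was below the filter, so the other array did not measure the difference again. With no filter its U74Av2 ratio was -0.30 (SE 0.54, adjusted p = 0.928). Epiblast markers had medians of 0.32 on U74Av2 (6 genes) and 0.29 on MOE430v2 (7 genes), with 0 called. On MOE430v2 the pluripotency factor Nanog was at 0.86 (adjusted p = 0.23), the epiblast growth factor Fgf5 at 0.67 (0.387) and Sox2, shared by epiblast and neural plate, at -0.37 (0.299), and the part of the epiblast in the Foxd3 value was not tested.

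**Figure D2:**
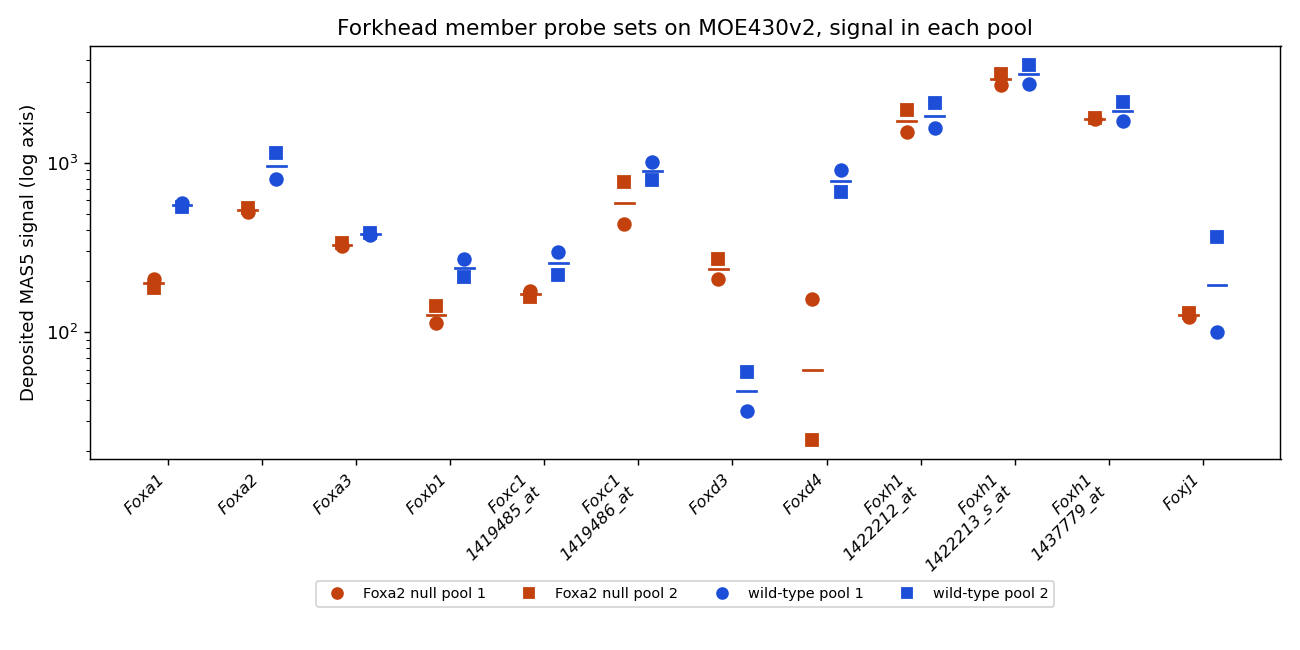
Deposited MAS5 signal (vertical axis, log scale) of the 12 member probe sets on MOE430v2 (horizontal axis) in each pool, with Foxa2 null pools left of wild-type pools and bars at the geometric mean of the 2 pools. Foxd3 is the only member with both null pools (205.1 and 271) above both wild-type pools (34.3 and 58.3). Foxd4 null pool 2 stands at 23.1 and Foxj1 wild-type pool 2 at 361.4, each far from the other pool of its genotype.

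Foxb1, a factor of the developing neural tube and diencephalon, was low on U74Av2, with 28.5 and 37.4 in the Foxa2 null pools and 46.1 and 67.8 in the wild-type pools. On MOE430v2 it had 112.6 and 141.8 in the null pools and 269.8 and 212.4 in the wild-type pools. The groups did not overlap on either array, and the ratios of -0.78 (SE 0.33, adjusted p = 0.477) and -0.91 (SE 0.35, adjusted p = 0.349) did not pass by limma. The averaged ratio was -0.84 (95% interval -1.46 to -0.23, adjusted p = 0.162).

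Foxc1, a factor of paraxial mesoderm, was measured by 2 probe sets on MOE430v2. The first had 175.2 and 160.5 in the Foxa2 null pools and 295.8 and 218.5 in the wild-type pools. The second had 434.5 and 768.1 in the null pools and 1010 and 789.5 in the wild-type pools. Null pool 2 nearly reached wild-type pool 2 in the second and not in the first, and the ratios were -0.60 (SE 0.32, adjusted p = 0.51) and -0.64 (SE 0.27, adjusted p = 0.389) by limma. The second was -0.22 without null pool 1 and -1.06 without null pool 2, where the first was -0.69 and -0.50. On U74Av2 the signals were 7.1 and 5 in the null pools and 14.8 and 12.3 in the wild-type pools, below the filter. With no filter the ratio was -1.18 (SE 0.57, adjusted p = 0.64). Cardiac mesoderm markers, a later product of the anterior mesoderm, had medians of -1.10 over 3 genes on U74Av2 and -0.80 over 5 genes on MOE430v2, with 3 of 3 and 3 of 5 below 0 and 0 called. On the average of both platforms 2 of 3 were called lower, with a median of -1.02, where 1.06% of all genes were called lower. On MOE430v2 Tnnt2, a heart muscle troponin, was at -1.33 (adjusted p = 0.326), cardiac actin Actc1 at -1.21 (0.08) and the atrial light chain Myl7 at -0.80 (0.0828). The cardiac factors Nkx2-5 and Tbx5 were at 0.06 (0.972) and 0.06 (0.98).

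Foxh1 had the highest signals of the members and did not pass the test on any of its 4 probe sets. On U74Av2 it stood at 346.6 and 372 in the Foxa2 null pools and 311.3 and 471.1 in the wild-type pools. On MOE430v2 the probe set with the highest signal had 2859 and 3343 in the null pools and 2916 and 3778 in the wild-type pools. Another had 1517 and 2045 in the null pools and 1588 and 2241 in the wild-type pools, and the last had 1813 and 1820 in the null pools and 1755 and 2281 in the wild-type pools. The groups overlapped in every case, and wild-type pool 2 was the highest sample of all 4 probe sets. The log2 ratios were -0.09 on U74Av2 (adjusted p = 0.94) and -0.10, -0.10 and -0.14 on MOE430v2 (0.814, 0.882 and 0.749) by limma. The averaged ratio was -0.10, with a 95% interval from -0.44 to 0.25, and its sign turned without wild-type pool 2 (ratio 0.14).

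The partners and targets of Foxh1 in the Nodal pathway were spread to both sides of 0. Of 15 genes listed, 10 were tested on U74Av2 and 12 on MOE430v2, 0 were called on either, and the medians were 0.26 and 0.04, against -0.02 and 0.00 for all probe sets. Tdgf1, the Nodal co-receptor Cripto, had MOE430v2 signals of 494.5 and 1270 in the Foxa2 null pools and 98.8 and 295.5 in the wild-type pools. Eomes, a T-box factor induced by Nodal, had 1041 and 2145 in the null pools and 373.3 and 922.4 in the wild-type pools. Null pools were above wild-type pools for both, with log2 ratios of 2.21 (adjusted p = 0.147) and 1.34 (adjusted p = 0.259) by limma, and pool 2 of each genotype was the higher. On U74Av2 their ratios were 1.81 (adjusted p = 0.437) and 1.92 (adjusted p = 0.251). The signal transducer Smad2 was at 0.87 and the Nodal antagonist Lefty2 at 0.54 on MOE430v2, with adjusted p of 0.309 and 0.512. The ligand Nodal was at 0.16 (adjusted p = 0.847), with 402.3 and 503.6 in the null pools and 345.1 and 465.4 in the wild-type pools. The receptor Acvr2b was at -0.34 (adjusted p = 0.244), with all 4 comparisons of a null with a wild-type array below 0.

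Foxj1, the factor of motile cilia, differed between the platforms. On U74Av2 it had 52.2 and 51.6 in the Foxa2 null pools and 98.9 and 128.4 in the wild-type pools. On MOE430v2 it had 123.4 and 130.1 in the null pools and 100.1 and 361.4 in the wild-type pools. The null pools were alike on both arrays, whereas wild-type pool 1 was above them on U74Av2 and below them on MOE430v2. The ratios were -1.12 (SE 0.24, adjusted p = 0.138) on U74Av2 and -0.57 (SE 0.57, adjusted p = 0.733) on MOE430v2 by limma. The averaged ratio was -0.85 (95% interval -1.60 to -0.09, adjusted p = 0.268). Without wild-type pool 2 the MOE430v2 ratio was 0.35 and the averaged ratio -0.29, and without wild-type pool 1 the averaged ratio was -1.40 (adjusted p = 0.0438, in a range of 0.0438 to 0.795).

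Of 24 names of motile cilium genes, 20 were on MOE430v2 and 13 were tested. Their median ratio was -0.23, 9 were below 0 and 0 were called (1 lower at an unadjusted p under 0.05). Of all 14180 genes tested on this array, 7357 were below 0 and 993 were lower at an unadjusted p under 0.05, so the list's count at that p was near the background. Rsph1, a radial spoke protein, had 37.7 and 157.9 in the Foxa2 null pools and 311.1 and 305.5 in the wild-type pools, a log2 ratio of -1.98 (SE 0.59, adjusted p = 0.23 by limma). Its U74Av2 probe set, of relaxed probe choice and the only one of the list tested there, gave 279.3 and 381 in the null pools and 266 and 361.4 in the wild-type pools, a ratio of 0.07. The platforms thus disagreed for this gene also. Tekt1, a tektin of the axoneme, was at -0.75 (adjusted p = 0.534), the dynein light chain Dynlrb2 at -0.69 (0.465) and the dynein intermediate chain Dnaic2 at -0.94 (0.705). The groups overlapped for Dnaic2, with 26.25 and 140.9 in the null pools and 184.1 and 76.01 in the wild-type pools. Its null pool 1 was also below the filter signal.

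**Figure D3:**
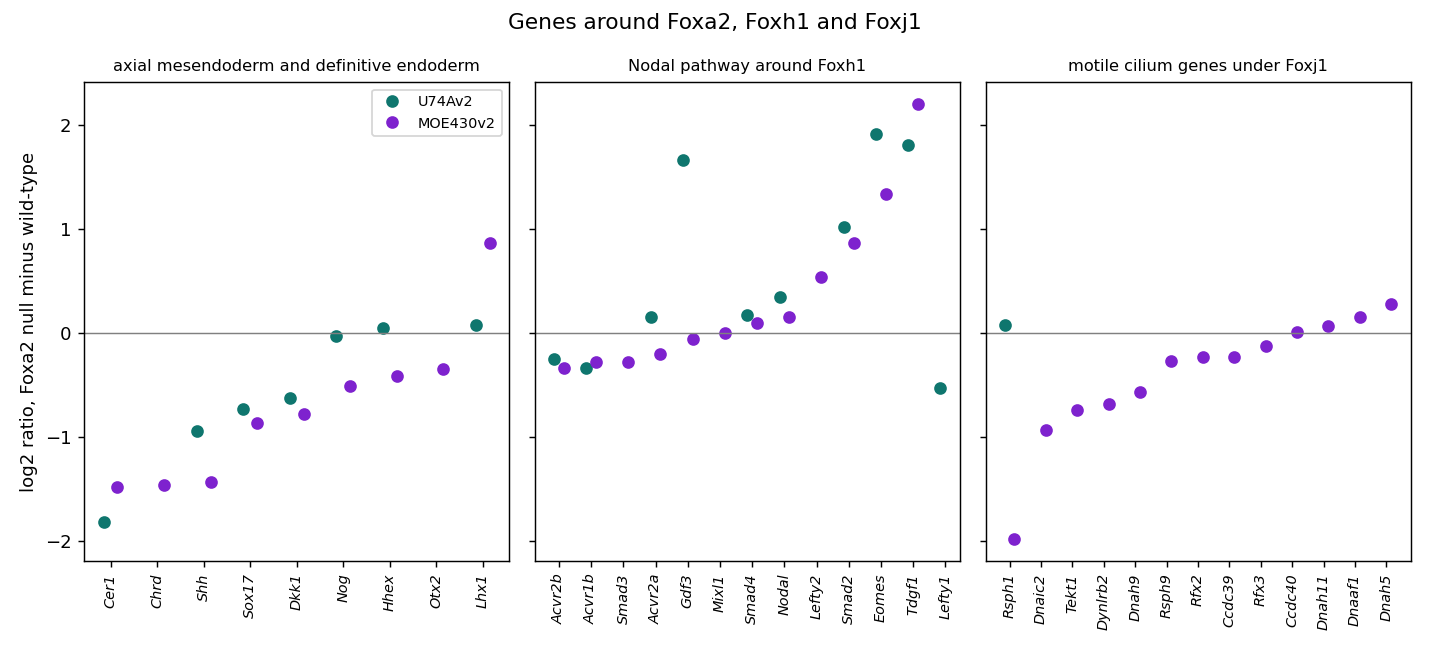
Log2 ratio, Foxa2 null over wild-type (vertical axis), for the genes of 3 lists (horizontal axis) on U74Av2 and MOE430v2, each by its probe set of highest signal. On MOE430v2 the axial mesendoderm and endoderm list has a median of -0.78, the Nodal list of 0.04 with Tdgf1 at 2.21, and the motile cilium list of -0.23 with Rsph1 at -1.98.

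Genes of the axial mesendoderm and definitive endoderm, the tissues that depend on Foxa2, were set beside the members. Of 12 listed, 7 were tested on U74Av2 (median -0.63, 1 called lower) and 9 on MOE430v2 (median -0.78, 0 called, 5 lower at an unadjusted p under 0.05). Of all genes tested, 11 of 6410 were called lower on U74Av2 and 993 of 14180 were lower at that p on MOE430v2. On the average of both platforms 2 of 7 were called lower, where 1.06% of all genes were. Brachyury (T) was listed but is not among the genes tested, although the study reported it reduced on both arrays. Cer1, which blocks Nodal, Bmp and Wnt ligands outside the cell, had MOE430v2 signals of 403.5 and 646.8 in the Foxa2 null pools and 1074 and 1881 in the wild-type pools, a ratio of -1.49 (adjusted p = 0.0825 by limma), and it fell on U74Av2 by 1.82 (adjusted p = 0.0313). Shh, the notochord signal, had 256.1 and 373.7 in the null pools and 953.8 and 723.8 in the wild-type pools, a ratio of -1.44 (adjusted p = 0.051). Chrd, the Bmp antagonist chordin, had a ratio of -1.47 (adjusted p = 0.154). Lhx1, a homeobox factor of the organizer, was at 0.87 (adjusted p = 0.373), with 489.9 and 1074 in the null pools and 330.6 and 468.5 in the wild-type pools.

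**Figure D4:**
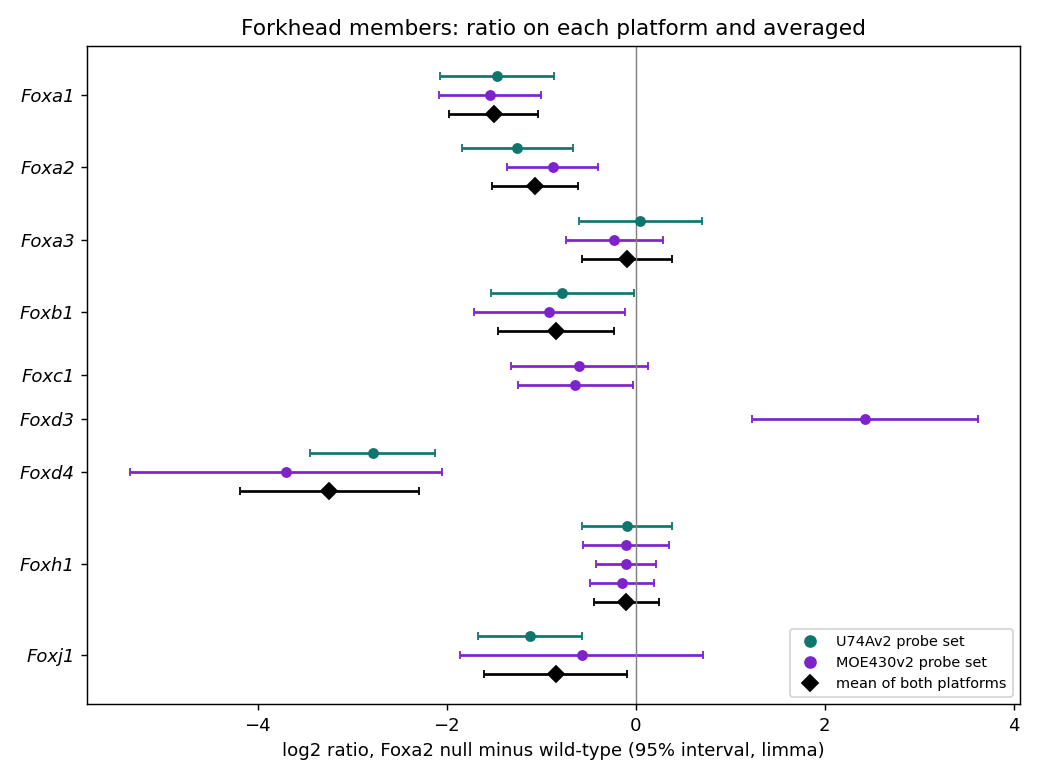
Log2 ratio, Foxa2 null over wild-type (horizontal axis), with its 95% interval from limma for each tested member probe set, and for the mean of both platforms (diamonds), by gene (vertical axis). On the mean, Foxa1 (-1.50), Foxa2 (-1.07) and Foxd4 (-3.24) were called lower, the intervals of Foxa3 and Foxh1 span 0, and Foxd3 (2.42, MOE430v2 only) lies on the other side.

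Counted over the members, 5 of the 7 tested probe sets on U74Av2 had both null pools below both wild-type pools, where 21.4% of all tested probe sets did, and 0 had them above, where 18.6% did. On MOE430v2 it was 7 of 12 below and 1 above, where all probe sets gave 21.8% and 21.5%. On the average of both platforms 6 of the 7 members tested were below in all 4 comparisons and 0 above, where 23.5% and 22.2% of the 5933 genes were. By the adjusted p, 3 of these 7 were called lower and 0 higher, where 1.06% and 1.35% of all genes were. The median ratio of the members was -1.12 on U74Av2, -0.59 on MOE430v2 and -0.85 on the average, against -0.02, 0.00 and -0.01 for all tested. These members were picked with earlier results in view, so the counts describe them and are no test of the family.

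The other forkhead genes had medians nearer to 0. On U74Av2 17 of the 35 had probe sets, 15 probe sets were tested, their median ratio was -0.12 and 0 were called. On MOE430v2 51 probe sets of 22 genes were tested, with a median of 0.17, 6 below in all 4 comparisons, 15 above, 0 called lower and 1 called higher. Of all probe sets tested there, 21.8% were below and 21.5% above in all 4 comparisons, and 0.244% were called lower and 0.19% higher. The called gene was Foxf1, a factor of lateral plate and extra-embryonic mesoderm, with 2436 and 2793 in the Foxa2 null pools and 1367 and 1304 in the wild-type pools. Both null pools were well above both wild-type pools, and Foxf1 rose by 0.96 (SE 0.13, adjusted p = 0.0214 by limma). Its other MOE430v2 probe set was at 0.57 (SE 0.18, adjusted p = 0.26), and its U74Av2 probe set at 0.90 (SE 0.36, adjusted p = 0.447), with 55.8 and 109.1 in the null pools and 49.6 and 35.3 in the wild-type pools. On the average Foxf1 rose by 0.93 (adjusted p = 0.0451 by limma). The MOE430v2 call was lost without Foxa2 null pool 2 (adjusted p = 0.0541), wild-type pool 1 (0.0759) or wild-type pool 2 (0.114), in a range of 1.44e-06 to 0.454, and the averaged call without the same pools (0.0987, 0.0649 and 0.135, in a range of 9.87e-05 to 0.223). Foxf1 lies on chromosome 8, whose genes had a median ratio of 0.32 on U74Av2 (344 genes) and 0.35 on MOE430v2 (734 genes), where the other chromosomes that carry forkhead genes had medians between -0.04 and 0.02. What the chromosome adds to the Foxf1 value was not tested. Foxc2, a mesoderm factor related to Foxc1 and on the same chromosome, was at -0.15 (adjusted p = 0.872) and -0.55 (0.639) in its U74Av2 probe sets and at -0.25 (0.547) on MOE430v2. Foxl1, also on chromosome 8, was at -0.25 (0.818) on U74Av2, and its MOE430v2 probe set, below the filter, was at 0.15.

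**Figure D5:**
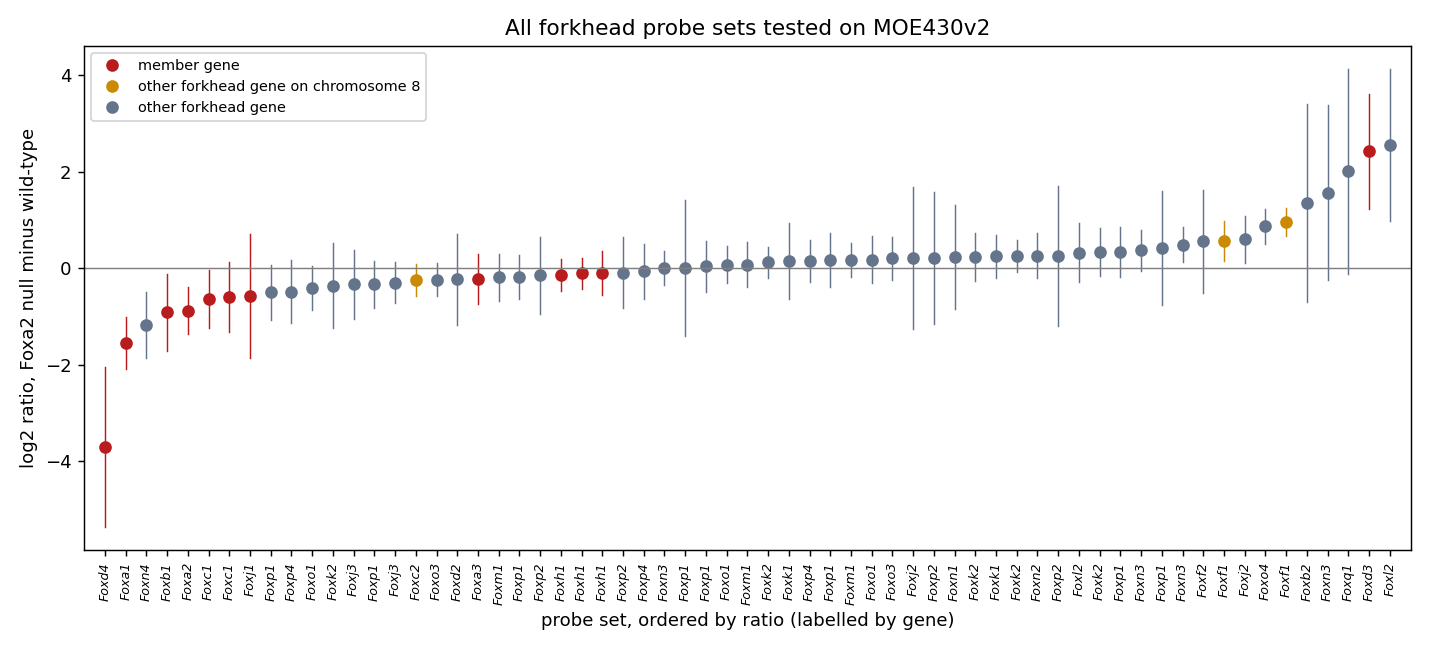
Log2 ratio, Foxa2 null over wild-type (vertical axis, lines show the 95% interval) of all forkhead probe sets tested on MOE430v2, ordered by ratio (horizontal axis). Foxd4 (-3.70) and Foxa1 (-1.54) stand at the low end and Foxd3 (2.42) and 1 of the Foxl2 probe sets (2.55) at the high end, while Foxf1 on chromosome 8 (0.96) has a narrow interval above 0.

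Among the rest, Foxn4, a factor of later neural progenitors, was the lowest on MOE430v2, with 134.3 and 147.9 in the Foxa2 null pools and 326.5 and 312 in the wild-type pools, a ratio of -1.18 (adjusted p = 0.157 by limma). Foxp1 and Foxp4 followed at -0.50 (adjusted p = 0.475) and -0.48 (0.558). Foxo4, a factor regulated by insulin signalling, had 2734 and 2070 in the null pools and 1400 and 1205 in the wild-type pools, a ratio of 0.87 (adjusted p = 0.06), and on U74Av2 it was at 0.17 (0.84). A probe set of Foxl2, known for its role in the ovary, had 152.3 and 152.4 in the null pools and 25.6 and 27.3 in the wild-type pools, a ratio of 2.55 (adjusted p = 0.187). Both wild-type signals were below the filter signal of 54.4, so it was tested because of its null values and the size of the ratio is uncertain. Its other probe set was at 0.32 (adjusted p = 0.68). On U74Av2 Foxk1 had 10.6 and 10 in the null pools and 29.4 and 35.4 in the wild-type pools, a ratio of -1.65 (adjusted p = 0.244). Both null signals were below the filter signal of 15.4, so it was tested because of its wild-type values, and with an offset of 32 before log2 the ratio was -0.60. The tested MOE430v2 probe sets of this gene were at 0.25 and 0.15. Besides Foxk1, the U74Av2 probe sets with both null pools below both wild-type pools were those of Foxd2, at -0.37 (0.647), and Foxp1, at -0.20 (0.833), and those with both above were of Foxf1 and Foxo3, the last at 0.06 (0.953).

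The profile over the 4 pools, averaged over both platforms and centred per gene, was compared with that of Foxa2 by the root mean square distance on the log2 scale, among 5932 other genes. The nearest was Plk2, a polo-like kinase, at a distance of 0.085, with log2 values of 5.84 and 5.74 in the Foxa2 null pools and 6.49 and 7.17 in the wild-type pools. Foxa2 itself had 7.68 and 7.81 in the null pools and 8.49 and 9.12 in the wild-type pools, and in both genes wild-type pool 2 was the highest. Next came Tmem45a (0.135), 1810021B22Rik (0.137), the semaphorin Sema6a (0.14) and the glutathione transferase Gsta4 (0.16). The closest forkhead genes were Foxj1 at rank 22, Foxb1 at rank 36 and Foxk1 at rank 72, and Foxa1 stood at rank 134 (distance 0.328), with equal values of 7.76 in both wild-type pools. The Foxk1 average joins -1.65 on U74Av2, from null signals below the filter, with 0.25 on MOE430v2. For Foxj1, wild-type pool 1 was above the null pools on U74Av2 and below them on MOE430v2. The averages of Foxj1 and Foxk1 thus hide a disagreement between the platforms. Foxd4, the member with the largest ratio, was far from Foxa2 by this measure, at rank 5913 (distance 1.27). The profiles were centred but not scaled, so the ratios of -3.24 for Foxd4 and -1.07 for Foxa2 set these genes apart by size. For Foxd4 the nearest were AI506816 (0.601), the imprinted hydrolase Mest (0.656), the somite factor Meox1 (0.752), the caudal factor Cdx1 (0.758) and the matrix protein Sparcl1 (0.769). Foxa1 was the closest forkhead gene, at rank 12 (distance 0.998), and Foxa2 was next, at rank 58 (distance 1.27). The points are the same 4 extracts for every gene, and the distances are a description with no test.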

How the data were processed

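The deposited values, MAS5 signals, are linear intensities, 1 for each probe set. Per the labels and methods, the authors scaled each array to 1 target. The mean after trimming 2% at each end is 150 on U74Av2 and 500 on MOE430v2, while the methods name another U74Av2 target, and the deposited MOE430v2 values carry no loess step, although the methods describe 1. Values were taken to log2 (floor 0.1, reached by 4 U74Av2 values of 0) in R 4.3.3 with the data.table package (1.17.8). U74Av2 was kept as scaled and MOE430v2 was normalized by cyclic loess. The U74Av2 arrays were hybridized in 2 sessions, each with an array of either genotype, and which pools shared a session is not given in the sources used here. Controls (66 and 64) and the lowest 30% by mean log2 signal were left out, which left 8695 and 31526 probe sets. Limma 3.58.1 (eBayes with an intensity trend, two-sided, no block) compared Foxa2 null with wild-type, adjusted by Benjamini-Hochberg. For 5933 genes tested on both arrays, log2 values of the probe sets of highest mean signal were averaged per extract, so n stayed 2 pools. Genes were named by a rule: all members, other forkhead genes past the threshold or at the extremes of those with 1 sign, and up to 4 genes per list by size of the MOE430v2 ratio, with some added after their values were seen (Foxc2, Foxl1, Nodal, Acvr2b, Tbx5, Lrp2). The members and lists were chosen with earlier results of these data known. Names and chromosomes came from the platform annotation and RefSeq (GRCm38.p6). The fit was also run on simulated data. Their spread was drawn from limma's own fitted trend, so that run cannot show whether the trend holds. Alternatives were another normalization, no filter, no trend, an offset of 32, a replicate block, all probe sets per gene, and each pool left out. The number of arrays limits the precision. Present calls and probe-level data are not used here.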

Additional observations from a re-analysis of the deposited data

How the results depend on the processing

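The calls rest on limma's intensity trend: without it 0 probe sets were called on U74Av2 (24 with it), 0 on MOE430v2 (137) and 2 genes on the average (143), and 0 members in any comparison (1, 1 and 3 lower). With no filter the calls numbered 3, 43 and 82, and 0, 0 and 2 members were lower. The cause was not tested. Leaving out 1 pool gave 15 to 38 calls on U74Av2, 29 to 237 on MOE430v2 and 54 to 262 on the average, and 1 to 2, 0 to 2 and 2 to 4 members lower. An offset of 32 left 2 members lower on MOE430v2, Foxd4 (adjusted p = 0.0348) as well as Foxa1. Another normalization, or all tested probe sets per gene, left the counts of members called unaltered.

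Pool numbers are shared between genotypes, but the sources used here do not say that they pair the pools, and the deviations of same-numbered pools correlated at 0.11 on U74Av2 and 0.09 on MOE430v2, with 2 pairs only. With the number as a replicate block the calls were 292, 1648 and 502, with 4 members lower on U74Av2, 3 lower and 1 higher on MOE430v2, and 3 lower on the average.

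Of 380 single-gene values under the alternatives, 331 kept direction and side of the threshold, 24 lost the call, 16 gained it and 9 turned sign. Leaving out 1 pool, Foxh1 ran from -0.39 to 0.21 on U74Av2, from -0.36 to 0.15, -0.28 to 0.07 and -0.34 to 0.05 in its MOE430v2 probe sets and from -0.33 to 0.14 on the average, and Foxj1 from -1.50 to 0.35 on MOE430v2, in each case low without wild-type pool 1 and high without wild-type pool 2. Without Foxa2 null pool 1 the ratios were 0.12 and 0.01 for Foxh1 probe sets on MOE430v2 and -0.06 for a Foxk1 probe set, which reached 0.35 without Foxa2 null pool 2. The adjusted p of these was above the threshold before and after. With no filter, Foxa1 and Foxf1 had adjusted p of 0.0917 and 0.0584 on MOE430v2, and Foxa2 and Foxf1 of 0.0507 and 0.0725 on the average. The averaged Foxf1 call was also lost with all tested probe sets (0.0777) and with both platforms as scaled by the authors (0.0625). Low signals limit Foxc1 and Foxd3 on U74Av2, which lie below the filter.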
